A study of Mus musculus with 12 samples.

Results

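The genes described here are the mouse zinc finger genes with symbols from Zfp700 to Zfp999, 97 of the 24054 genes in the tables. The rule for membership is the symbol alone. Their expression was read from RNA sequencing of 12 libraries of blood stem and progenitor cells sorted from fetal liver at E13.5, 3 libraries in each of 4 groups. All cells were LSK, the lineage-negative, Sca-1 and Kit positive fraction that holds the earliest blood cells. MPP (multipotent progenitors) were sorted as CD150-CD48+ and LT-HSC (long-term haematopoietic stem cells) as CD150+CD48-. The MPP mutants and the LT-HSC mutants had the genotype Setdb1 p/p;vav-cre, in which the Cre recombinase is driven by the Vav promoter, active in blood cells and their precursors. Among the controls, MPP controls 1 and 2 and LT-HSC control 1 were Setdb1 +/p;+/+ and had no Cre transgene, while MPP control 3 and LT-HSC controls 2 and 3 were Setdb1 +/p;vav-cre. Every control therefore also carried 1 copy of the p allele, which the labels do not define. Each MPP sample was 20000 sorted cells and each LT-HSC sample 500 to 1000.

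Most genes of this kind in the mouse encode KRAB zinc finger proteins. Their C2H2 fingers, each held together by a zinc ion between a pair of cysteines and a pair of histidines, read DNA sequence, and many bind the sequences of retrotransposons. Their KRAB box binds TRIM28 (KAP1), a corepressor that brings in the histone methyltransferase SETDB1, and SETDB1 adds H3K9me3, the histone modification typical of silent chromatin. KRAB zinc finger genes lie in tandem clusters that arose by gene duplication, and several clusters themselves carry this mark over the finger exons.

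By position in GRCm38, the build that the processing notes call mm10, the 97 genes lay on 16 chromosomes, with 21 on chromosome 7, 18 on chromosome 17, 14 on chromosome 8 and 10 on chromosome 13. A cluster was taken as 3 or more of these genes with neighbouring starts at most 1000000 bases apart, which put 58 genes in 12 clusters. Translation of the GENCODE coding transcripts gave 71 proteins with a KRAB box, matching at least 15 of 19 scored consensus positions, and 24 without one, matching at most 11. Zfp783 and Zfp939 had no coding transcript to translate. A protein without a match may still hold a diverged box. Proteins with a KRAB match had a median of 11 C2H2 fingers, and proteins without one a median of 6. Zfp781 has a KRAB match and no finger by this pattern, and Zfp703, Zfp704, Zfp750, Zfp839 and Zfp957, without a KRAB match, also have none.

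Zfp808, Zfp935, Zfp709, Zfp882, Zfp781 and Zfp799 are represented here by the 250 bases before their start sites, because the first 5 come from the 3 clusters, on chromosomes 13, 8 and 10, whose genes had the highest median genotype differences, and Zfp799 is one of the genes that fell most. The start site was the first one listed for each gene, and for Zfp808 and Zfp935 it lies inside the annotated span of the gene. The sequences are RefSeq's, in GRCm38.p6, written 5′ to 3′ on the strand of the gene, with CCAAT and its reverse complement ATTGG in capitals. The windows are chr13:62129640-62129889, plus strand for Zfp808, chr13:62466813-62467062, minus strand for Zfp935, chr8:71881818-71882067, plus strand for Zfp709, chr8:71908356-71908605, plus strand for Zfp882, chr10:81930513-81930762, minus strand for Zfp781 and chr17:32830262-32830511, minus strand for Zfp799.
Zfp808: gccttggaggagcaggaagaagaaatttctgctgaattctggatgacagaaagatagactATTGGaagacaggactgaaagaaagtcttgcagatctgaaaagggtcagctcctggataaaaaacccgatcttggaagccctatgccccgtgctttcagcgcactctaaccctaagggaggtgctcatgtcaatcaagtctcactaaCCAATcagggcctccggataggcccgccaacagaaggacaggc
Zfp935: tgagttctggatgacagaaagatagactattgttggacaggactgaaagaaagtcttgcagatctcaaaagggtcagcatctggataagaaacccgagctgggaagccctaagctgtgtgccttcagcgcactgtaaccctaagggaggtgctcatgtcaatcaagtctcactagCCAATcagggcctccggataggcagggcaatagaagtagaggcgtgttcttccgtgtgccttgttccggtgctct
Zfp709: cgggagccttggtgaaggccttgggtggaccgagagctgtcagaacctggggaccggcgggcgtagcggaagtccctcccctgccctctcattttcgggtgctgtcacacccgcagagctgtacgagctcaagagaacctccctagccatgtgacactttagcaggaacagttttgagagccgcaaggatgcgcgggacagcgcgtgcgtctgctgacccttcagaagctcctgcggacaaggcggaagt
Zfp882: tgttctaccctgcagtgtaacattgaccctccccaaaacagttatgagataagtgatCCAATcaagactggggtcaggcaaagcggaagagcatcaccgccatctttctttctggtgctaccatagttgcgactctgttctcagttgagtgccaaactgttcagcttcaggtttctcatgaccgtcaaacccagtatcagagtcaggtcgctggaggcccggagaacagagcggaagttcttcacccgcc
Zfp781: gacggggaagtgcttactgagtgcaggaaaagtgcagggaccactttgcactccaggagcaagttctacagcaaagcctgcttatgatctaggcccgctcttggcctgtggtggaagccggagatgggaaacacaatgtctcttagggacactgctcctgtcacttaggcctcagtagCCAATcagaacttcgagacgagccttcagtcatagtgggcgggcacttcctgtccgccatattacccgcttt
Zfp799: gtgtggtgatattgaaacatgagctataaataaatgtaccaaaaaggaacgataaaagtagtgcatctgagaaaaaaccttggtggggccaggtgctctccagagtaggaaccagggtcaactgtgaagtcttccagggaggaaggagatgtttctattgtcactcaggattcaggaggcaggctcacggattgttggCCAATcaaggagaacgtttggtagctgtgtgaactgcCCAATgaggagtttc

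Promoter sequences were matched for 85 of the 97 genes, and Zfp703, Zfp704, Zfp706, Zfp707, Zfp711, Zfp750, Zfp831, Zfp865, Zfp870, Zfp930, Zfp934 and Zfp960 are not among them. CCAAT on either strand, the core of the motif bound by the factor NF-Y, was found in 61.2% of the 85 windows, against 34.5% of the 27025 mouse promoter windows of the same length. The longer CCAATCA, whose matches are all also CCAAT matches, was found in 31.8% of the 85 windows and 7.65% of all windows. It was present in 25 of 66 windows of genes with a KRAB match and in 1 of 17 windows of genes without one. CCGGAA, the core of ETS factor motifs, was found in 25.9% of the 85 windows and 12.2% of all windows, and TATAAA in 3.53% and 12.97%. The windows of Zfp808 and Zfp935, neighbours on chromosome 13, were 69.1% identical in a global alignment, against a median of 45.9% over the 3570 pairs. Windows more alike than that came from Zfp758 and Zfp943 (93.8%), Zfp747 and Zfp764 (85.2%) and Zfp942 and Zfp944 (81.5%). These are descriptions of sequence, and no match was tested as a site.

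In TPM (transcripts per 1000000), the length-corrected level the authors deposited, the median gene averaged 7.93 over the 12 libraries. A mean of 10 TPM or more was reached by 41 genes, and 9 were under 1 TPM. The highest was Zfp706, a small protein with 1 finger that in mouse embryonic stem cells represses Klf4. It averaged 145 ± 9.49 TPM in MPP mutants, 153 ± 24.1 in MPP controls, 149 ± 18.4 in LT-HSC mutants and 165 ± 6.69 in LT-HSC controls (SD, n = 3 each). Zfp740 at 56.3 TPM, Zfp869 at 39.2, Zfp961 at 31.9, Zfp809 at 31.1 and Zfp830 at 27.8 followed as means of all 12 libraries. Apart from the step below Zfp706, the ranges of the 4 group means of neighbours in this order overlapped. Zfp735 and Zfp957 were at 0 in every library. The summed level of all 97 genes was 979 to 1066 TPM in MPP mutants and 1060 to 1124 in MPP controls, and 1079 to 1357 TPM in LT-HSC mutants and 1248 to 1378 in LT-HSC controls, so the ranges overlapped in both pairs.

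**Figure D1:**
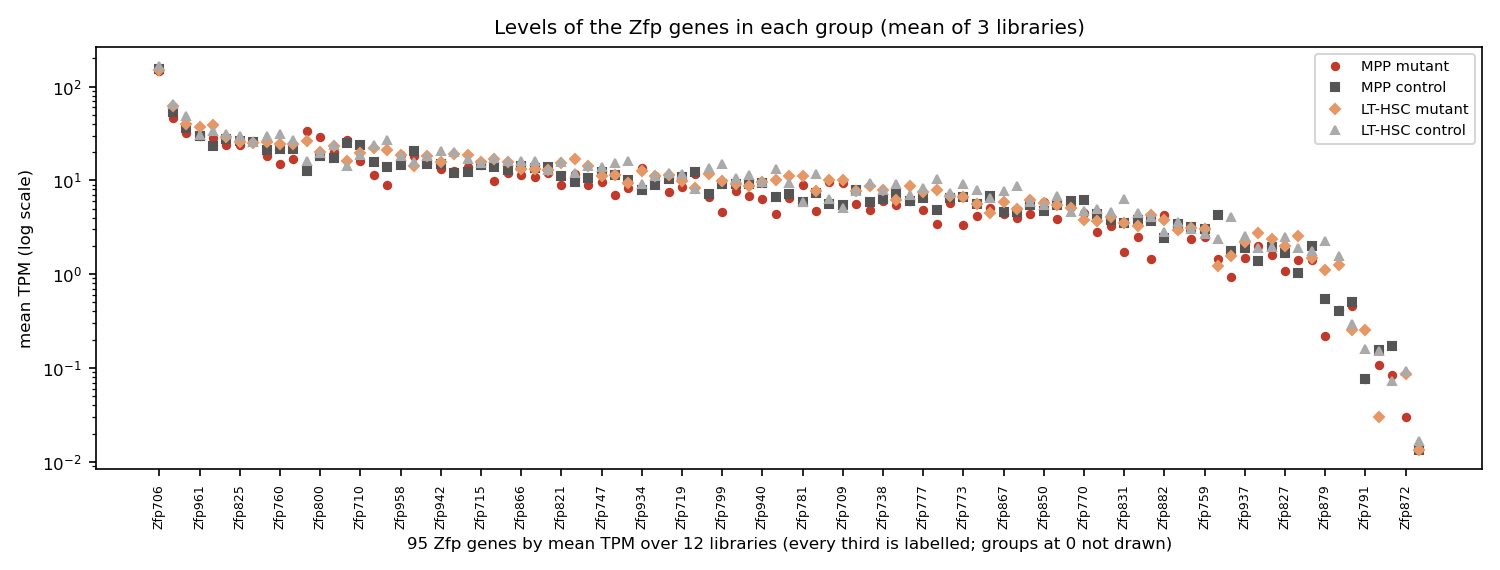
Mean TPM on a log axis of the 95 Zfp genes with a count in any library, ordered along the horizontal axis by their mean over 12 libraries, with 1 marker per group of 3 libraries. Zfp706 stands alone at the top, most genes lie between 1 and 60 TPM, and 9 of the 97 are under 1 TPM.

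Library totals were 10119416 to 14113198 expected counts, of which the 97 genes took 0.204% to 0.265%. Expected counts are shares of reads assigned by the authors' software, and 31 of the 97 genes had a fractional count in at least 1 library, which marks reads shared with another gene. Setdb1, counted over the whole gene, was at 87.0, 117 and 99.0 CPM (counts per 1000000) in MPP mutants, against 140, 95.3 and 87.9 CPM in MPP controls. It was at 66.4, 66.4 and 80.8 CPM in LT-HSC mutants, against 83.9, 73.4 and 108 CPM in LT-HSC controls. The groups overlapped in both cell types, and since the p allele is not defined, a count over the whole gene does not check the genotype labels. A list of 15 HSC genes summed to 3748 to 4216 CPM in LT-HSC controls and 1848 to 1979 CPM in MPP controls. The list includes Slamf1, the gene of the sorting antigen CD150, so the sort itself fixes part of this difference. Y-linked genes summed to 206 to 269 CPM in MPP mutant 2, MPP control 3 and LT-HSC control 2, which are taken as male, and to at most 0.173 CPM in the other libraries. Markers of other cells moved with the genotype in MPP. Erythroid genes summed to 6203 to 9441 CPM in MPP mutants, against 2006 to 3537 CPM in MPP controls, and 17 of 20 were higher by the test used below. Macrophage genes summed to 345 to 485 CPM in MPP mutants and 1497 to 2161 CPM in MPP controls, with 13 of 14 tested genes lower. Lymphoid genes summed to 368 to 497 CPM in MPP mutants and 879 to 930 CPM in MPP controls, with 11 of 12 tested genes lower. Megakaryocyte genes summed to 172 to 226 CPM in MPP mutants and 352 to 391 CPM in MPP controls, with 3 of 9 tested genes lower. The HSC genes summed to 1535 to 1662 CPM in MPP mutants, with 8 of 15 lower and 2 higher. Granulocyte and monocyte genes summed to 2561 to 3339 CPM in MPP mutants and 2543 to 3014 CPM in MPP controls, with 6 of 12 higher and 2 lower. Hepatoblast genes summed to 110 to 141 CPM in MPP mutants and 291 to 605 CPM in MPP controls, and to 104 to 510 CPM in LT-HSC mutants and 578 to 1892 CPM in LT-HSC controls. Erythroid sums overlapped in LT-HSC, at 3845 to 6916 CPM in mutants and 3815 to 6301 CPM in controls, with 1 of 20 genes higher. Macrophage sums overlapped there too, at 573 to 1368 CPM in mutants and 1202 to 1544 CPM in controls, with 0 of 14 tested genes called. Of the genes tested in LT-HSC, 1 of 4 lymphoid and 1 of 11 megakaryocyte genes were lower. None of the erythroid, macrophage, granulocyte and monocyte, hepatoblast or HSC markers was at 0 in a whole group. The megakaryocyte marker Gp6 was at 0 in both mutant groups and in LT-HSC controls, while the lymphoid markers Il7r, Rag1, Ebf1 and Ly6d were at 0 in LT-HSC mutants and Dntt in LT-HSC controls. Their part in the results on Zfp genes was not tested.

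The first comparison asked what the Setdb1 mutation did to these genes in MPP. Of the 97 genes, 88 had enough counts to be tested, and 23 of the 88 (26.1%) differed at an adjusted p under 0.05, 11 higher and 12 lower in mutants. Over all 12392 genes tested the share called was 35.0%, with 16.5% higher and 18.5% lower, so the Zfp genes were called no more often than genes at large. The test was edgeR's quasi-likelihood test with Benjamini-Hochberg adjustment over all genes tested, and a gene past its threshold is said here to be called. Log2 fold changes ran from -1.43 to 1.52 with a median of -0.15, against -0.01 for all genes, and 61 of the 88 were negative. Zfp genes with lower numbers in their symbols had a median of -0.10, with 42 of 207 called, 16 higher and 26 lower. A negative median was therefore not particular to the genes described here. Another scaling of the libraries, upper-quartile in place of TMM, gave 28 calls among the 88, 10 higher and 18 lower. It called 35.1% of all genes tested. The count was 14 without MPP control 2, 13 without MPP mutant 2 and 14 without MPP mutant 3, and 15 when all 12 libraries shared 1 fit, settings that called 26.0%, 22.0%, 22.7% and 21.1% of all genes tested. Against MPP control 3 alone, the only MPP control with vav-cre, a joint fit called Zfp808 and no other Zfp gene, and 0.899% of all genes tested. MPP control 3 was also the only male MPP control, so the transgene and sex cannot be told apart in that contrast. In these bulk samples, fewer cells of a type and less RNA per cell cannot be told apart.

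Zfp808, a KRAB zinc finger gene on chromosome 13 (chr13:62129857-62173938), had the largest rise. It was at 56.9, 78.2 and 66.5 CPM in the MPP mutants, against 27.4, 21.3 and 20.2 CPM in the MPP controls. All 3 mutants lay above all 3 controls, and the gap between the groups was larger than the range within either. The log2 fold change was 1.52 ± 0.15 (SE, as after every log2 fold change here), a fold of 2.87, with an adjusted p of 3.2e-05 by edgeR, and Zfp808 kept its call under all 14 alternative settings. Its counts were fractional in 12 of 12 libraries, so part of its reads were shared with another gene.

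Zfp934 and Zfp935 lie in the same cluster. Zfp934 had 17.2, 20.6 and 20.2 CPM in the MPP mutants, against 12.2, 9.74 and 8.78 CPM in the MPP controls, with no overlap (log2 fold change 0.89 ± 0.16, adjusted p = 0.0018 by edgeR). Zfp935, whose GENCODE protein has 7 fingers and no KRAB match, had 18.4, 16.96 and 16.0 CPM in the MPP mutants, against 14.1, 12.7 and 11.5 CPM in the MPP controls. Its samples did not overlap either, but at a log2 fold change of 0.40 ± 0.15 it missed the threshold (adjusted p = 0.052 by edgeR). Counts were fractional in 12 libraries for Zfp934 and in 7 for Zfp935, so part of their reads were shared with another gene too. The promoters of Zfp808 and Zfp935 printed above share long stretches, among them the one with CCAATCA, while the log2 fold changes were 1.52 for Zfp808 and 0.40 for Zfp935. The difference between the 2 was not tested. Gm3604, the other gene of the tables between Zfp808 and Zfp934, was also called higher (0.70).

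**Figure D2:**
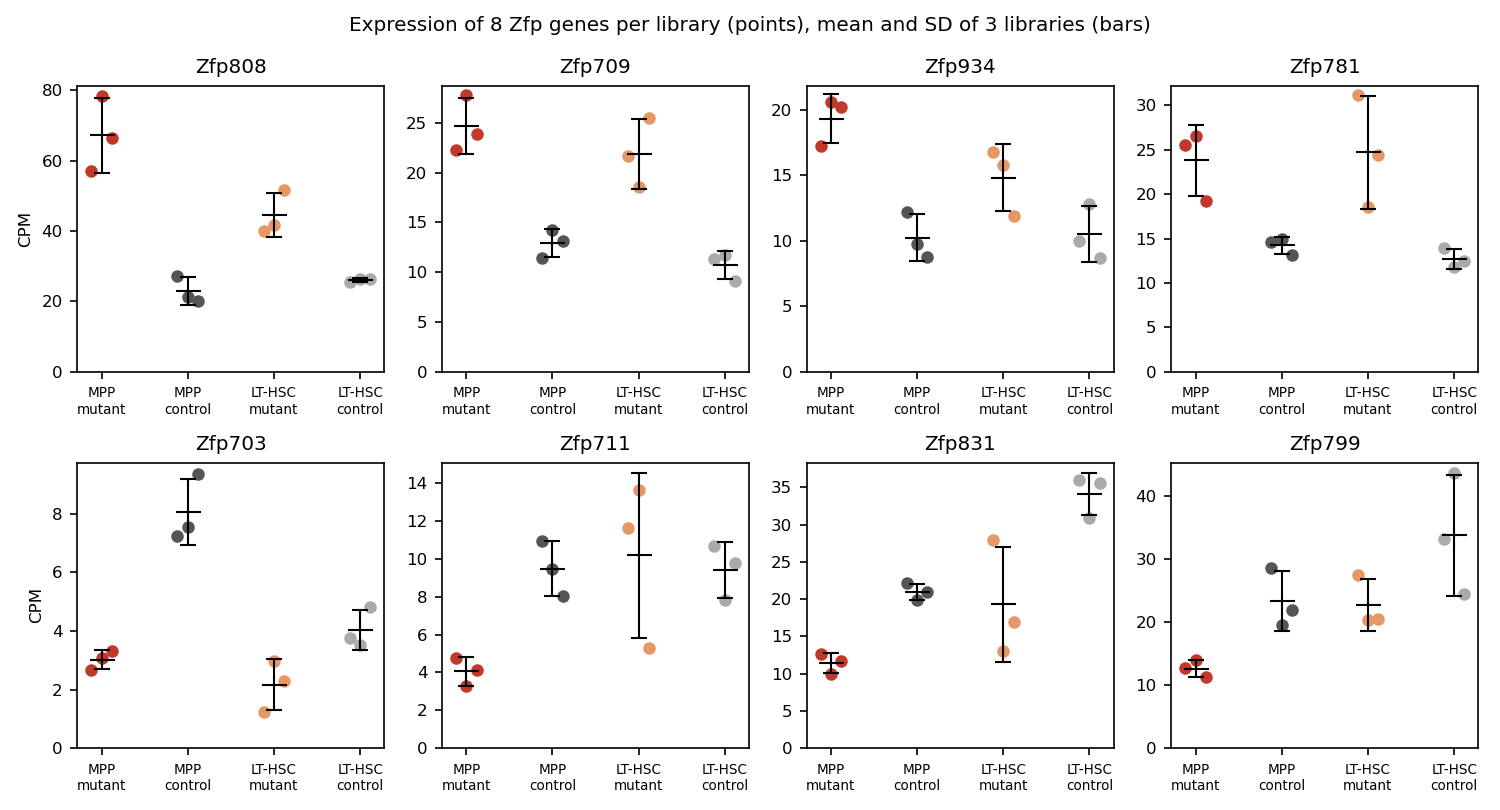
CPM of 8 Zfp genes in each library (points) with the mean and SD of 3 libraries (bars), for MPP mutants, MPP controls, LT-HSC mutants and LT-HSC controls. The upper row shows Zfp808, Zfp709, Zfp934 and Zfp781, higher in all 3 MPP mutants than in all 3 MPP controls, and the lower row Zfp703, Zfp711, Zfp831 and Zfp799, lower in all 3 MPP mutants.

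On chromosome 8 a cluster of 3 KRAB genes, Zfp709, Zfp882 and Zfp961, held 2 of the rises. Zfp709 (chr8:71882068-71892565) had 22.3, 27.8 and 23.9 CPM in the MPP mutants, against 11.4, 14.2 and 13.1 CPM in the MPP controls. Zfp882 (chr8:71908606-71918851) had 15.6, 18.2 and 14.7 CPM in the MPP mutants, against 8.33, 9.05 and 7.35 CPM in the MPP controls. Both sets were separate, with log2 fold changes of 0.91 ± 0.15 for Zfp709 and 0.94 ± 0.16 for Zfp882 (adjusted p = 0.00074 and 0.0010 by edgeR). Zfp961, the third and most highly expressed of them, was at 50.6, 55.3 and 49.1 CPM in the MPP mutants, against 54.7, 41.7 and 47.1 CPM in the MPP controls. Its groups overlapped and it was not called (0.08 ± 0.12). Zfp617, the other gene of this span, was not called (0.21).

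On chromosome 10, Zfp781 (chr10:81901911-81930512), with a KRAB match and no finger by the pattern used, had 25.6, 26.6 and 19.2 CPM in the MPP mutants, against 14.7, 14.9 and 13.1 CPM in the MPP controls. Its transcript has a further entry in the authors' annotation, so its counts may not all come from this span. The samples of Zfp781 did not overlap and the log2 fold change was 0.71 ± 0.16 (adjusted p = 0.0047 by edgeR). Its neighbours Zfp873 (0.37 ± 0.16) and Zfp938 (-0.05 ± 0.20) were not called. The promoter of Zfp781 was 68.2% identical to that of Zfp938. The other 9 clusters held 1 more rise, Zfp809 on chromosome 9, and 6 falls. Their medians ran from -0.38 in the cluster with Zfp746 on chromosome 6 to 0.05 in the cluster of Zfp809, Zfp810 and Zfp872, of which only 2 genes were tested. The largest cluster, 10 genes around Zfp758 on chromosome 17, had 9 negative changes and a median of -0.33, with Zfp760 and Zfp820 called lower, and the 6 other genes tested in its span had a median of -0.30 and no call.

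**Figure D3:**
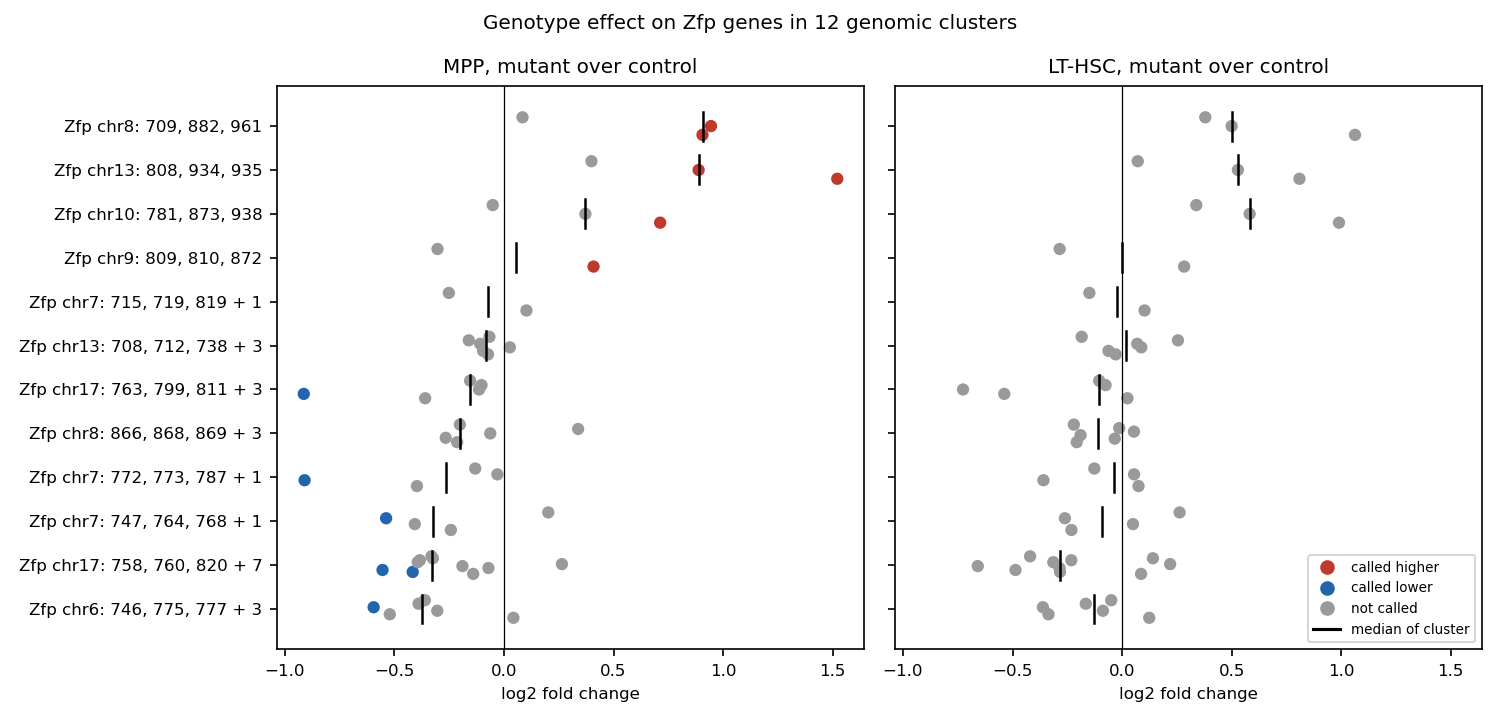
Log2 fold changes, mutant over control, of the tested Zfp genes in 12 genomic clusters (rows, named by chromosome and symbol numbers), in MPP (left) and LT-HSC (right). Points are genes, coloured by the call in that cell type, and vertical bars are cluster medians. The clusters of Zfp709, Zfp808 and Zfp781 have the 3 highest medians in both cell types, 0.91, 0.89 and 0.37 in MPP and 0.50, 0.53 and 0.58 in LT-HSC, where no gene was called.

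The remaining rises were outside these 3 clusters. Zfp809 is the best known of them, a KRAB protein that recognises the primer binding site of murine leukaemia virus and related endogenous retroviruses and directs their silencing. It had 28.7, 30.4 and 25.8 CPM in the MPP mutants, against 20.5, 22.0 and 20.2 CPM in the MPP controls. The groups were apart, by a log2 fold change of 0.41 ± 0.12 (adjusted p = 0.025 by edgeR), the smallest of the rises. Zfp809 overlaps Zfp599 in the annotation, and its counts were whole numbers in all 12 libraries. Zfp951, a KRAB gene on chromosome 5, had 17.4, 20.2 and 15.7 CPM in the MPP mutants, against 8.02, 7.64 and 12.97 CPM in the MPP controls (0.87 ± 0.21, adjusted p = 0.0074 by edgeR). MPP control 3, the male control with vav-cre, lay nearest to the mutants, and the log2 fold change was 0.39 in the fit with vav-cre controls alone. Zfp800, the only gene called higher without a KRAB match, had 60.5, 84.8 and 75.6 CPM in the MPP mutants, against 45.8, 44.9 and 36.6 CPM in the MPP controls (0.77 ± 0.14, adjusted p = 0.0015 by edgeR). Zfp958 (0.46), Zfp850 (0.44) and the low-level Zfp960 (0.86) completed the 11. Counts of Zfp960 were fractional in 12 libraries and those of Zfp850 in 4.

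Among the genes that fell, Zfp703 changed most. Zfp703 is a transcriptional cofactor of the NET family that represses target genes with Groucho-type partners. It lies on chromosome 8 (chr8:26977336-26981462), outside the clusters. It had 2.67, 3.08 and 3.30 CPM in the MPP mutants, against 7.25, 7.56 and 9.34 CPM in the MPP controls. The highest mutant was well below the lowest control, and the log2 fold change was -1.43 ± 0.21 (adjusted p = 0.00036 by edgeR). Zfp711, an X-linked gene whose human counterpart brings the histone demethylase PHF8 to promoters, had 4.78, 3.27 and 4.15 CPM in the MPP mutants, against 10.9, 9.47 and 8.01 CPM in the MPP controls. The groups did not overlap, at a log2 fold change of -1.25 ± 0.21 (adjusted p = 0.0011 by edgeR). Zfp831 had 12.6, 9.98 and 11.7 CPM in the MPP mutants, against 22.1, 19.9 and 20.9 CPM in the MPP controls, again with no overlap (-0.90 ± 0.14, adjusted p = 0.00072 by edgeR).

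Zfp799, Zfp773, Zfp760, Zfp820 and Zfp940 were the 5 genes with a KRAB match that fell. Zfp799 (chr17:32815449-32830261) had 12.7, 14.0 and 11.3 CPM in the MPP mutants, against 28.6, 19.5 and 22.0 CPM in the MPP controls. Zfp773 on chromosome 7 had 7.18, 6.17 and 6.10 CPM in the MPP mutants, against 13.49, 12.5 and 9.91 CPM in the MPP controls. Both genes were separate between the groups, with log2 fold changes of -0.91 ± 0.17 and -0.91 ± 0.18 (adjusted p = 0.0019 and 0.0028 by edgeR). The promoter of Zfp799 printed above holds CCAAT at 2 places, as does that of Zfp808, which rose. Among genes with a matched promoter, CCAAT was in 6 of 9 called higher in MPP mutants and 6 of 8 called lower. The longer CCAATCA was in 5 of the 9 and 1 of the 8. Neither difference was tested. Zfp783, annotated by RefSeq as a long non-coding RNA, also fell (-0.60), and it overlaps Zfp956. Its counts were fractional in 10 libraries. Zfp820 (-0.55), Zfp768 (-0.54), Zfp940 (-0.46), Zfp710 (-0.45), Zfp760 (-0.42) and Zfp704 (-0.35) were called with smaller changes. Zfp704 and Zfp710 each overlap another gene of the tables, and their counts were whole numbers in all 12 libraries. Counts of Zfp820 were fractional in 4 libraries and those of Zfp760 in 1.

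Of the 23 calls, 13 were kept whichever of the 6 MPP libraries was left out. They were Zfp808, Zfp709, Zfp882, Zfp934, Zfp781, Zfp951 and Zfp800 among the rises and Zfp703, Zfp711, Zfp831, Zfp799, Zfp773 and Zfp783 among the falls. The other 10, all with smaller changes or low levels, lost their calls without MPP mutant 2, all but Zfp760 also without MPP control 2, and all but Zfp809 without MPP mutant 3. Zfp710, Zfp768, Zfp809, Zfp850 and Zfp960 did so without MPP control 3, Zfp768, Zfp820, Zfp940 and Zfp960 without MPP control 1, and Zfp809, Zfp940 and Zfp960 without MPP mutant 1.

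By protein class, 10 of the 63 tested genes with a KRAB match were higher and 5 lower, with a median of -0.11. Of the 23 tested genes without a match, 1 was higher and 6 were lower, with a median of -0.34. The difference between the classes was not tested, and most genes of both classes were not called. Genes with known roles that were not called in MPP included Zfp932, a KRAB protein that silences endogenous retroviruses in mouse embryonic stem cells (0.15), and Zfp708, a KRAB protein that binds a family of retrotransposons (-0.07). They also included Zfp706 (0.02), Zfp746, which represses the metabolic regulator Ppargc1a (0.04), Zfp830, a nuclear protein needed by the early mouse embryo (-0.11), and Zfp750, a regulator of epidermal differentiation (-0.05). Zfp750 was near the detection limit in all groups, at 0.192 to 1.29 CPM. In 39 of the 88 tested genes (44.3%) the samples of the MPP groups did not overlap, 17 higher and 22 lower, against 50.9% of all genes tested (26.6% higher and 24.3% lower).

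**Figure D4:**
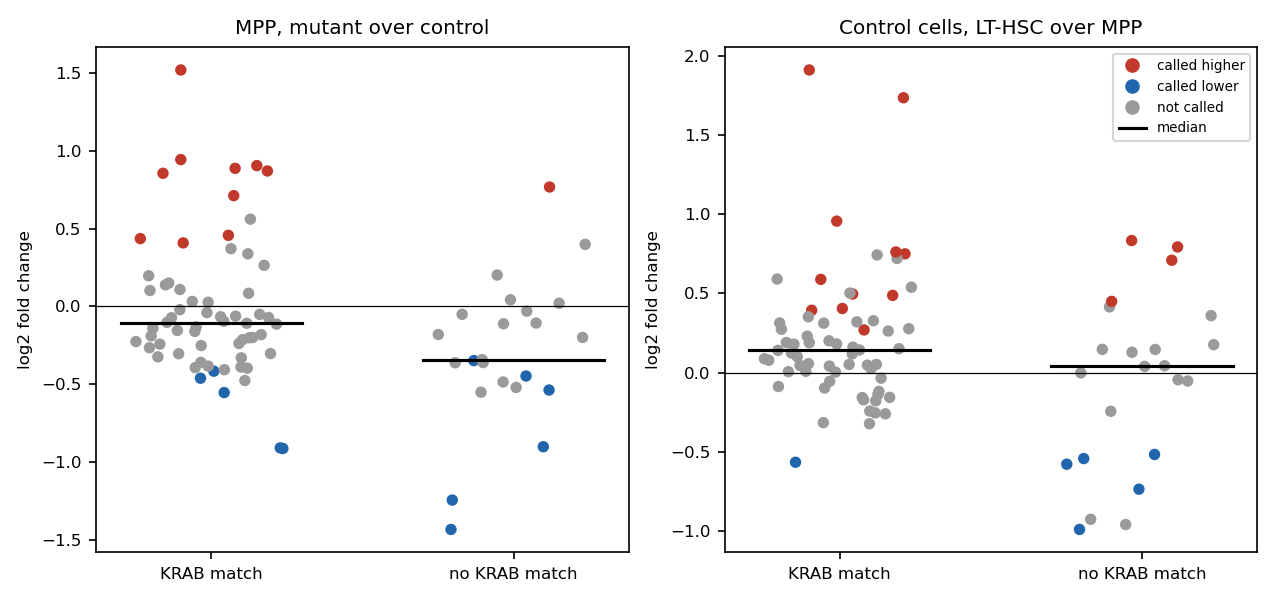
Log2 fold changes of the tested Zfp genes by protein class, for MPP mutants over controls (left) and for control LT-HSC over control MPP (right). Points are genes, coloured by the call, and bars are class medians, which in MPP are -0.11 for genes with a KRAB match and -0.34 for genes without one.

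The same comparison in LT-HSC called none of the 89 Zfp genes tested, while 0.420% of all 12847 genes tested were called (54 genes). At an unadjusted p under 0.05 by edgeR there were 11 of the 89, 6 higher and 5 lower, against 9.50% of all genes tested. DESeq2 called 4, with Zfp808, Zfp709 and Zfp781 higher and Zfp870 lower, limma called 0, and a fit of all 12 libraries called 4, with Zfp808, Zfp709 and Zfp781 higher and Zfp704 lower. Of all genes tested, DESeq2 called 2.02%, limma 0.498% and the fit of 12 libraries 1.89%. The median log2 fold change was -0.03, against 0.03 for all genes. For Zfp genes with lower numbers it was -0.01, with 1 of 213 called. Samples did not overlap in 21 of the 89 (23.6%), 9 higher and 12 lower, against 16.5% of all genes tested (6.90% higher and 9.57% lower).

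Zfp808 had 40.0, 41.8 and 51.7 CPM in the LT-HSC mutants, against 25.4, 26.4 and 26.3 CPM in the LT-HSC controls. Zfp709 had 21.7, 18.5 and 25.4 CPM in the LT-HSC mutants, against 11.4, 11.7 and 9.11 CPM in the LT-HSC controls. Zfp781 had 31.2, 18.5 and 24.4 CPM in the LT-HSC mutants, against 13.9, 11.8 and 12.4 CPM in the LT-HSC controls. In all 3 genes every mutant lay above every control, with the LT-HSC controls close together and the mutants more spread. The log2 fold changes were 0.81 ± 0.15, 1.06 ± 0.21 and 0.99 ± 0.22 (adjusted p = 0.11, 0.12 and 0.16 by edgeR), and they stayed between 0.69 and 1.14 when any 1 LT-HSC library was left out. Zfp870, a KRAB gene of the chromosome 17 cluster that also holds Zfp799, had 16.0, 15.1 and 12.5 CPM in the LT-HSC mutants, against 22.0, 24.5 and 27.3 CPM in the LT-HSC controls. The groups did not overlap (-0.73 ± 0.18, adjusted p = 0.23 by edgeR), whereas in MPP the gene was nearly level (-0.11 ± 0.17).

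Of the 11 genes called higher in MPP, 11 had a positive log2 fold change in LT-HSC, with a median of 0.50 there. Over all genes called higher in MPP and tested in LT-HSC, 86.9% were positive, so a shared sign was common. Of the 12 called lower in MPP, 9 were negative in LT-HSC, against 79.1% over all genes. The exceptions were Zfp711, Zfp710 and Zfp940. Zfp711 was at 11.6, 13.6 and 5.31 CPM in the LT-HSC mutants, against 10.7, 7.80 and 9.79 CPM in the LT-HSC controls, where the mutants spanned the controls. Zfp703 was at 1.24, 2.97 and 2.29 CPM in the LT-HSC mutants, against 3.76, 3.53 and 4.82 CPM in the LT-HSC controls, below all of them but not called (-0.85 ± 0.42). Zfp831 was at 27.9, 13.03 and 16.95 CPM in the LT-HSC mutants, against 36.0, 30.9 and 35.6 CPM in the LT-HSC controls, also below all of them but not called (-0.79 ± 0.26, adjusted p = 0.40 by edgeR).

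**Figure D5:**
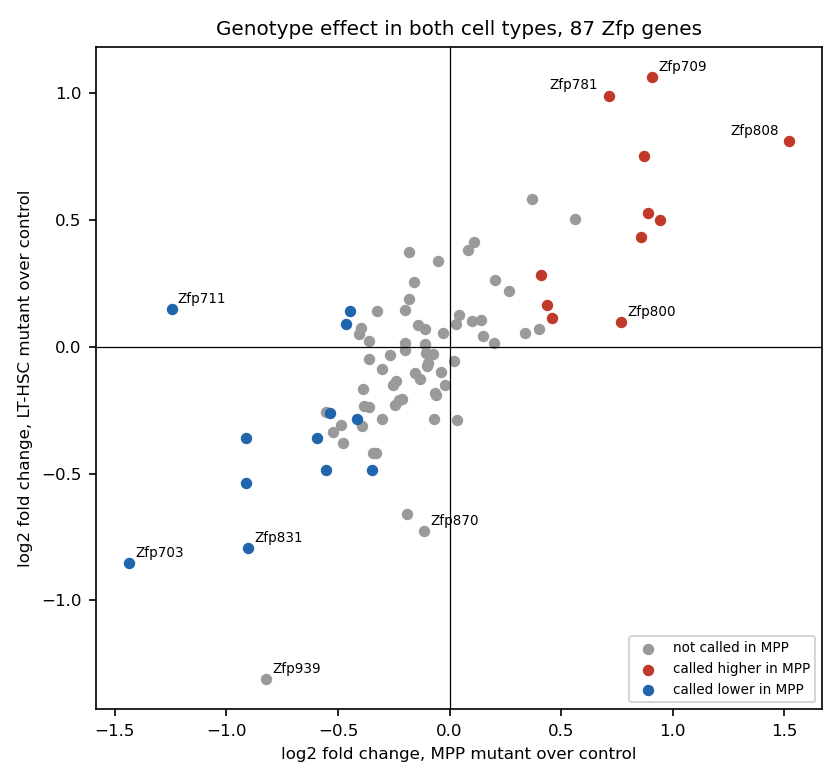
Log2 fold change, mutant over control, in MPP (horizontal axis) and in LT-HSC (vertical axis) for the 87 Zfp genes tested in both, coloured by the call in MPP. The 11 genes called higher in MPP all lie above 0 in LT-HSC, and 3 of the 12 called lower, Zfp711 among them, do so too.

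The difference between the genotype effects of the 2 cell types was tested as an interaction over all 12 libraries. None of the 90 Zfp genes tested was called, against 0.377% of the 13249 genes tested, and 6 had an unadjusted p under 0.05 by edgeR, against 12.4% of all genes tested. DESeq2 and limma also called 0, while DESeq2 called 2.56% of all genes tested. The lowest p belonged to Zfp808, whose log2 effect in LT-HSC was smaller by 0.78 ± 0.22 than in MPP (a difference of -0.78, adjusted p = 0.16 by edgeR). Zfp711 differed by 1.32 ± 0.44 and Zfp800 by -0.74 ± 0.26 (adjusted p = 0.23 and 0.26 by edgeR). Without LT-HSC mutant 3, these 3 genes were called, with differences of -0.90, 1.64 and -0.99 for Zfp808, Zfp711 and Zfp800 (adjusted p = 0.028, 0.011 and 0.014 by edgeR), and 6.55% of all genes tested were called in that fit.

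The remaining comparison set the 2 cell types against each other in controls only, all of which carried 1 copy of the p allele. LT-HSC controls 2 and 3 and MPP control 3 also carried vav-cre. Of 90 Zfp genes tested, 22 were called (24.4%), 16 higher and 6 lower in LT-HSC, while over all 12834 genes tested 38.5% were called, with 20.5% higher and 18.0% lower. The count was 14 without LT-HSC control 1, 11 without LT-HSC control 2, 8 without MPP control 2 and 11 without MPP control 3, settings that called 30.2%, 30.9%, 25.9% and 31.2% of all genes tested. The median log2 fold change of LT-HSC over MPP was 0.14, against 0.01 for all genes, and 63 of the 90 were positive. Zfp genes with lower numbers also had a median of 0.14, with 49 of 213 called, 35 higher and 14 lower. Samples did not overlap in 28 of the 90 (31.1%), 22 higher and 6 lower, against 51.2% of all genes tested (26.5% higher and 24.6% lower). With a KRAB match, 11 of 65 were higher and 1 lower, and without a match 4 of 23 were higher and 5 lower, a difference that was not tested. Markers of other cells also moved with this comparison. Of the genes tested, 16 of 17 hepatoblast, 13 of 20 erythroid and 10 of 11 megakaryocyte markers were higher in LT-HSC controls, 10 of 12 lymphoid markers were lower and 1 higher, 3 of 12 granulocyte and monocyte markers were lower, and 7 of 14 macrophage markers were higher and 4 lower. Their part in it was not tested.

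Zfp945, a KRAB gene of the large chromosome 17 cluster, had 38.1, 40.1 and 32.5 CPM in the LT-HSC controls, against 21.5, 19.4 and 16.4 CPM in the MPP controls (0.96 ± 0.15, adjusted p = 0.00095 by edgeR). In the same cluster Zfp760 (0.41), Zfp820 (0.50) and Zfp943 (0.49) were also higher. Zfp768, whose human counterpart binds a motif found in an ancient repeat, had 30.7, 32.5 and 30.4 CPM in the LT-HSC controls, against 17.1, 18.9 and 18.3 CPM in the MPP controls (0.79 ± 0.13, adjusted p = 0.00098 by edgeR). In both genes every LT-HSC control was above every MPP control by a margin larger than the range within a group. Zfp831 had 36.0, 30.9 and 35.6 CPM in the LT-HSC controls, against 22.1, 19.9 and 20.9 CPM in the MPP controls (0.71 ± 0.13, adjusted p = 0.0022 by edgeR). The largest fold changes were at low levels. Zfp879 had 2.57, 2.14 and 3.84 CPM in the LT-HSC controls, against 0.771, 0.747 and 0.744 CPM in the MPP controls (1.91 ± 0.38, adjusted p = 0.0036 by edgeR). Zfp964 had 1.33, 1.48 and 1.28 CPM in the LT-HSC controls, against 0.540, 0.166 and 0.496 CPM in the MPP controls (1.73 ± 0.50, adjusted p = 0.020 by edgeR).

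Zfp949 (0.76), Zfp870 (0.75), Zfp784 (0.83), Zfp939 (1.02), Zfp867 (0.59), Zfp956 (0.45), Zfp809 (0.39) and Zfp869 (0.27) were the other genes called higher in LT-HSC controls. The 6 lower genes were led by Zfp703 with 3.76, 3.53 and 4.82 CPM in the LT-HSC controls, against 7.25, 7.56 and 9.34 CPM in the MPP controls. Its groups were apart, at a log2 fold change of -0.99 ± 0.23 (adjusted p = 0.0084 by edgeR). Zfp746 had 15.2, 14.7 and 17.3 CPM in the LT-HSC controls, against 18.6, 29.3 and 31.1 CPM in the MPP controls (-0.73 ± 0.20, adjusted p = 0.015 by edgeR). MPP control 1 was the lowest of the MPP controls for Zfp746, and close to LT-HSC control 3. Zfp865 (-0.58), Zfp871 (-0.56), Zfp770 (-0.54) and Zfp710 (-0.51) were the others, and the samples of Zfp871 overlapped. Zfp945, Zfp768, Zfp831, Zfp879, Zfp949, Zfp870, Zfp784 and Zfp703 kept their calls whichever library was left out. The other 14 all lost theirs without MPP control 2. Without LT-HSC control 2, all of these except Zfp710, Zfp746 and Zfp939 lost theirs, and without MPP control 3 all except Zfp710, Zfp760 and Zfp871. Without LT-HSC control 1 the calls of Zfp710, Zfp746, Zfp809, Zfp820, Zfp865, Zfp869, Zfp939 and Zfp943 were lost, without MPP control 1 those of Zfp809, Zfp820, Zfp867 and Zfp871, and without LT-HSC control 3 those of Zfp869 and Zfp956. The MPP controls also served in the comparison with MPP mutants, so the values of genes called in both are not independent.

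Beside the zinc finger genes, the 19 genes listed for the silencing machinery they work through were read from the same fits. In MPP 3 of them were higher in mutants and 1 was lower, against 16.5% higher and 18.5% lower over all genes tested. Fam208a, which encodes the HUSH complex subunit TASOR, had a log2 fold change of 1.08 ± 0.11, Morc2a, a chromatin ATPase that works with HUSH, one of 0.77 ± 0.09, and Atf7ip, the partner that stabilises SETDB1, one of 0.49 ± 0.17. Uhrf1, which guides maintenance DNA methylation, was lower (-0.33 ± 0.10). Atf7ip lost its call without any 1 of the MPP mutants, and Uhrf1 without MPP control 1, MPP mutant 2 or MPP mutant 3. Trim28, the corepressor of KRAB proteins, had 357, 336 and 352 CPM in the MPP mutants, against 281, 383 and 403 CPM in the MPP controls, with the mutants inside the range of the controls (-0.05 ± 0.12). In LT-HSC none of the 19 was called. The log2 fold changes there were 0.83 ± 0.19 for Fam208a, 0.68 ± 0.16 for Morc2a and 0.60 ± 0.21 for Atf7ip (adjusted p = 0.19, 0.19 and 0.41 by edgeR). In these genes every LT-HSC mutant was above every LT-HSC control, as in 6.90% of all genes tested. Uhrf1 was nearly level (0.02 ± 0.16). The interaction was not called for any of the 19. Counts of Fam208a were fractional in 12 libraries. Between controls, Trim28 was lower in LT-HSC, with 152, 159 and 236 CPM, against 281, 383 and 403 CPM in MPP (-0.96 ± 0.18, adjusted p = 0.0024 by edgeR). The HP1 gene Cbx3 (-0.95) and Uhrf1 (-0.36, not called without LT-HSC control 1) were lower there too.

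In MPP, 9 genes did not have enough counts to be tested, namely Zfp735, Zfp791, Zfp811, Zfp819, Zfp872, Zfp879, Zfp936, Zfp957 and Zfp964. Zfp879 and Zfp964 were tested where LT-HSC entered, and Zfp750 was tested in MPP and not in LT-HSC. Zfp819, a KRAB gene known from pluripotent cells, had 0.276, 0.0907 and 0 CPM in the MPP mutants, against 0.308, 0.249 and 0.165 CPM in the MPP controls, a handful of counts per library. No Zfp gene was at or under 3 counts in 1 group while averaging 1 CPM or more in the other, so none was switched on or off by that measure.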

How the data were processed

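RNA sequencing of 12 libraries was analysed, 3 in each of 4 groups taken from the titles and genotype labels. Library input was 10 ng of RNA and the low-input kit is not strand-specific, per the labels' protocols. The tools named are STAR and RSEM with the mm10 build, per the submitters' processing notes; no version is given in the sources used here. The authors deposited 1 table per library with RSEM expected counts per gene, TPM values and effective lengths, per the file headers. No label says whether every sample of a group came from a separate fetus. Both control groups mix genotypes, and the MPP mutants mix sexes by their Y-linked genes, so samples in these groups did not all come from the same fetus. For the LT-HSC mutants this is not known. The p-values measure the spread between these samples, part of which may be technical. No pair of replicates agreed within counting noise (chi-square per gene 5.01 to 47.2).

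The deposited expected counts, rounded to whole numbers, were tested over all genes with edgeR 4.0.16 in R 4.3.3 (TMM scaling, filterByExpr by group with minimum count 10 and minimum total 15, glmQLFit and glmQLFTest, Benjamini-Hochberg adjustment, threshold 0.05). Each pair of groups was fitted on its own 6 libraries and the interaction on all 12. CPM use TMM-scaled library sizes. Levels of different genes were compared only as TPM, which the authors deposited. Depth limits precision through counts, and at 3 counts a gene is at the floor; such limits cover counting error only. Alternatives were upper-quartile scaling, DESeq2 1.42.0, limma 3.58.1 on log2(CPM + 0.5) of the unrounded expected counts, no filter, a replicate block, sex as a covariate, a joint fit, vav-cre controls alone, and each library left out. The programs were tested on simulated data in which 200 genes were changed 2-fold. With the spread of the MPP libraries, 172 of the 200 were recovered, with 23 false calls. With the spread of the LT-HSC libraries, 66 of the 200 were recovered, with 9 false calls, so most 2-fold changes were missed there. In both simulations the false calls were a larger share of all calls than the threshold of 0.05. The MPP simulation changed 200 genes with 12282 tested, while 35.0% of genes tested were called in the MPP data. Its recovery may therefore differ from that of the real fit.

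Titles number replicates 1 to 3 in every group. Deviations from group means of same-numbered LT-HSC mutants and controls correlated at r = 0.108, 0.148 and 0.175 across genes, all above 0.1, although the meaning of a number is not in the labels. The values given are from fits without a replicate block, and the block was an alternative setting.

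All 97 genes matched RefSeq's GRCm38.p6 annotation by transcript accession. Proteins were translated from the longest reading frame among GENCODE coding transcripts, a KRAB match needed 13 of 19 consensus positions in the first 350 residues, and promoters are the 250 bases before RefSeq's start sites, aligned with Biopython 1.88. Named genes are the 10 higher and 10 lower called genes with the smallest p in each comparison, the 6 with the highest TPM, genes with known roles, genes called in clusters and Setdb1; further genes named completed a count of calls or stood out after their values were seen. The members and lists were chosen with earlier results of these data known.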

Additional observations from a re-analysis of the deposited data

How the results depend on the processing

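In MPP, the 23 calls of Zfp genes became 15 in the joint fit of 12 libraries and 1 (Zfp808) with vav-cre controls alone, where 1 MPP control was left and was assumed to vary like the other groups. They were 13 to 26 when 1 library was left out, and 20 to 28 under the other settings (22 with DESeq2, 23 with limma, 21 without a filter, 28 with upper-quartile scaling, 21 with sex as a covariate). With the replicate block there were 20 calls in MPP, without Zfp768, Zfp940 and Zfp960. In LT-HSC, 0 calls became 4 with DESeq2 and 4 in the joint fit, and stayed at 0 when any 1 library was left out and with the replicate block. Between controls, the 22 calls were 8 to 25 when 1 library was left out, 15 in the joint fit and 21 with the replicate block. The interaction had 0 calls, 0 to 3 when 1 library was left out and 0 with the replicate block. In the other comparisons, deviations of same-numbered samples correlated below 0.1 (r = -0.0247, -0.212 and -0.177 between MPP mutants and controls, and 0.0597, -0.263 and 0.0683 between control LT-HSC and control MPP). Whether the numbers mark pairs was not tested. The causes of the changes in calls were not tested, and the settings that leave libraries out hold fewer samples.

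Among the genes checked, signs reversed only in values that were not called in the fits given above. With vav-cre controls alone, the MPP values of Setdb1 (-0.12), Zfp870 (-0.11), Zfp708 (-0.07), Zfp706 (0.02) and Zfp746 (0.04) became 0.14, 0.013, 0.085, -0.10 and -0.23. With upper-quartile scaling Zfp706 and Zfp746 became -0.040 and -0.018. With 1 library left out, Setdb1 ran from -0.24 to 0.12, Zfp870 from -0.20 to 0.033, and, also in MPP, Zfp938 from -0.16 to 0.13, Zfp708 from -0.18 to 0.0201, Zfp706 from -0.094 to 0.11, Zfp746 from -0.15 to 0.19, Zfp750 from -0.31 to 0.21 and Trim28 from -0.20 to 0.053. Without MPP control 1, Trim28 was called lower (-0.20). In LT-HSC, Zfp711 ran from -0.16 to 0.46 and Zfp940 from -0.0915 to 0.24, and Zfp940 was -0.0915 with sex as a covariate. LT-HSC control 2 was the only male LT-HSC library, and leaving it out gave the same -0.0915. Sex and that library cannot be told apart in LT-HSC. Depth limits the genes under 1 TPM most, since they rest on few counts per library.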
